A study of Mus musculus with 12 samples.

Results

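Astrocytes carry the genes of glutamate uptake, of the gap junctions that couple them and of the water channel at their vessel-facing processes, and 10 such genes were followed here through the brains of *Stau2* gene trap mice: *Gfap*, *S100b*, *Aldh1l1*, *Slc1a2*, *Slc1a3*, *Glul*, *Gja1*, *Gjb6*, *Aqp4* and *Gdf10*. Each was taken from the transcript cluster (the set of probes that stands for 1 gene on the array) annotated with its symbol alone, and for *Glul*, which had 2 such clusters, from the brighter one. They are 10 of 22180 genes on the array with a cluster of a single symbol, and all 10 passed the filter on low values, which 16425 of those genes passed. Affymetrix arrays for mouse genes measured the RNA of 12 adult male mice aged 16 to 20 weeks, in 4 groups of 3. WT mice were C57Bl/6J, and Stau2GT mice were of the line B6.129P2-Stau2Gt(RRG396)Byg, in which a gene trap vector sits within *Stau2*, the gene of an RNA-binding protein, in every cell of the body. Trained mice of both genotypes had gone through 4 weeks of behavioral tests, exposed to them at the age of 4 months. The tests were open field, recognition of objects and of their location, and Barnes maze. Naive mice were taken before training. Separate ages of the naive and the trained mice on the arrays were not given in the sources used here. The labels give the tissue as brain and name no region.

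The targeted gene was checked first. *Stau2* lay at 8.21 to 8.32 on the log2 scale in naive WT and at 8.06 to 8.08 in naive Stau2GT brains, and at 8.16 to 8.30 in trained WT and 7.95 to 8.07 in trained Stau2GT brains. The groups did not overlap in either training state, and averaged over both states the log2 fold change was -0.21 (two-sided exact permutation within training states, p = 0.005, the lowest that this design can reach). In the fit used for the members, however, *Stau2* did not pass either (adjusted p = 0.292 from limma in the mean of both states, 0.330 in trained and 0.954 in naive mice). Where the probes lie relative to the vector was not given in the sources used here. Arrays of 1 group correlated at 0.978 to 0.988, lowest among the trained Stau2GT arrays. All naive arrays belong to 1 array series in the labels and all trained arrays to another, so training and array series cannot be told apart, while each comparison of genotypes lies within 1 series. Markers of several brain cell types were present: all 16 listed markers of cerebellar granule cells and 13 of 15 of mature oligodendrocytes passed the filter. In bulk RNA, fewer cells of a type and less RNA per cell cannot be told apart. Nothing in the labels says how the mice relate to each other, so p-values measure the spread between these mice.

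As background, astrocytes clear glutamate from the synaptic cleft through the transporters GLT-1 (*Slc1a2*) and GLAST (*Slc1a3*), turn it into glutamine with glutamine synthetase (*Glul*) and hand the glutamine back to neurons. The connexins encoded by *Gja1* and *Gjb6* join astrocytes into a network, and aquaporin 4 (*Aqp4*) sits in the end feet on blood vessels. The filament protein GFAP, the calcium-binding protein S100B (in the brain also made by some oligodendrocytes) and the folate enzyme ALDH1L1 serve as markers of the cell type, and *Gdf10*, a gene of the BMP family, marks Bergmann glia, the astrocytes that ensheath Purkinje cells.

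None of the 10 genes passed the test between Stau2GT and WT brains after adjustment over all clusters, in trained mice, in naive mice or in the mean of both. *Gja1* and *Aqp4* lay higher in all 3 naive Stau2GT brains than in all naive WT brains, by 0.18 and 0.20 on the log2 scale, and *Gdf10* lay higher in all 3 trained Stau2GT brains than in all trained WT brains, by 0.19. That is 2 of 10 genes without overlap in naive and 1 of 10 in trained mice, near the 12% and 11.2% of all clusters that did not overlap. The glutamate transporters and the bright *Glul* cluster differed between genotypes by at most 0.04 in either training state. The second, dim *Glul* cluster differed by -0.34 in trained and -0.08 in naive mice, values given without a p-value. With group means taken off, *S100b* went up and down with the markers of cerebellar granule cells (r = 0.90 over the 12 brains), though not among the 3 trained Stau2GT brains. *Gdf10* did so in naive mice (r = 0.98) but not in trained mice (r = 0.17).

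The promoters of 3 genes picked by their values are shown as 250 bases before the transcription start on the plus strand (RefSeq, mouse build GRCm38.p6). *Gja1* is the member with an unadjusted p under 0.05 from limma between genotypes in naive mice. *S100b* and *Gdf10* are the 2 members with the highest correlations with the granule cell markers over the 12 brains. None of the 3 passed the adjusted threshold in any comparison. Capitals mark matches, on either strand, to TGAGTCA (the AP-1 motif) in *Gja1*, to CCAAT (the CCAAT box) in *S100b* and to GGGCGG (the GC box) in *Gdf10*; 1 base is shared by the last 2 matches in *Gdf10*. The windows are chr10:56377050-56377299 for *Gja1*, chr10:76253586-76253835 for *S100b* and chr14:33923337-33923586 for *Gdf10*.
Gja1: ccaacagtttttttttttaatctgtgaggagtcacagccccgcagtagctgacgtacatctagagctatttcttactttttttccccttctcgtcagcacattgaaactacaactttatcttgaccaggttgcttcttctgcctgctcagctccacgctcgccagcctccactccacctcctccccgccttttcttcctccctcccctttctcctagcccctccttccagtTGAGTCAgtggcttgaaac
S100b: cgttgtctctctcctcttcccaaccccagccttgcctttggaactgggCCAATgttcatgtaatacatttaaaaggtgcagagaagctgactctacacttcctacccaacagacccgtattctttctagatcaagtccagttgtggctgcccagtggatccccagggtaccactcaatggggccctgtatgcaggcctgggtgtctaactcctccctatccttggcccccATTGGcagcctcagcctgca
Gdf10: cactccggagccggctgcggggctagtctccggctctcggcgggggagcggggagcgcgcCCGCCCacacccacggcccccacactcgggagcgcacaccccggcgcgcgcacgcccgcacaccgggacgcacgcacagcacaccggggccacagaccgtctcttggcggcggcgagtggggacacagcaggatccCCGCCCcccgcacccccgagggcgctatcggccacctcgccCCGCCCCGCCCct
The AP-1 motif of *Gja1* lies 19 bases before the start, and 4.46% of the 32851 mouse promoters of this length hold one. Among the 9 member genes with a promoter in the table, *Gja1* was the 1 gene with this motif. The CCAAT box was found in *S100b*, *Aldh1l1*, *Glul* and *Slc1a3* and in 33.8% of all promoters, and the GC box in *Gdf10*, *Aldh1l1*, *Glul* and *Slc1a3* and in 32.7%. Neither of these 2 letter strings was shared by *S100b* and *Gdf10*. Only 3 strings were searched, and a link between them and the values of the members was not tested.

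*Gfap*, the filament gene used to stain astrocytes, was at 8.52, 8.41 and 8.65 in naive WT brains (log2 values of mice 1 to 3), at 8.53, 8.69 and 8.46 in naive Stau2GT, at 8.51, 8.59 and 8.43 in trained WT and at 8.52, 8.36 and 8.35 in trained Stau2GT brains. The lowest values belonged to trained Stau2GT mice 2 and 3, but mouse 1 of that group lay above 2 of the 3 trained WT mice, and the groups overlapped. The log2 fold change was -0.10 in trained mice (95% confidence interval -0.30 to 0.10, adjusted p = 0.798 from limma) and 0.03 in naive mice (-0.16 to 0.23, adjusted p = 0.998). *S100b* was at 8.49, 8.46 and 8.64 in naive WT, 8.52, 8.73 and 8.61 in naive Stau2GT, 8.53, 8.69 and 8.55 in trained WT and 8.57, 8.51 and 8.48 in trained Stau2GT brains. The groups overlapped in both training states, and the trained Stau2GT brains were the closest to each other. The genotype difference was 0.09 in naive and -0.07 in trained mice, with intervals from -0.08 to 0.26 and from -0.24 to 0.10. *Aldh1l1*, a marker found in most astrocytes, lay between 7.19 and 7.48 in all 12 brains, with both extremes among the trained Stau2GT mice. Its genotype difference was -0.01 in each training state.

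Of the uptake genes, *Slc1a2* was at 9.70, 9.70 and 9.59 in naive WT, at 9.73, 9.53 and 9.66 in naive Stau2GT, at 9.74, 9.77 and 9.78 in trained WT and at 9.74, 9.80 and 9.78 in trained Stau2GT brains. Trained brains of both genotypes were tight and above all naive brains of their genotype, and WT and Stau2GT mice overlapped in both states. The fold between genotypes was 1.01 in trained mice (95% confidence interval 0.910 to 1.11) and 0.984 in naive mice (0.890 to 1.09). *Slc1a3* spanned 10.25 to 10.42 over all brains, with a fold of 1.02 in trained (0.923 to 1.12) and in naive mice (0.929 to 1.13). *Glul* had the narrowest span, 11.70 to 11.83, with a log2 fold change of -0.04 in trained mice (-0.16 to 0.09) and 0.00 in naive mice (-0.12 to 0.13). In the clusters used for these 3 genes, all groups overlapped between genotypes. Over the 3 genes the lowest limit of a fold was 0.890 (*Slc1a2*, naive) and the highest 1.13 (*Slc1a3*, naive).

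The second, dim *Glul* cluster did not follow the first. It was at 6.10, 5.71 and 5.73 in naive WT, 5.78, 5.58 and 5.95 in naive Stau2GT, 6.58, 6.44 and 6.39 in trained WT and 6.27, 5.83 and 6.28 in trained Stau2GT brains. Trained WT brains were above naive WT brains by 0.62 on the log2 scale (adjusted p = 0.0711 from limma), where the bright *Glul* cluster gave 0.00. In trained mice its genotype difference was -0.34, against -0.04 for the bright cluster. The trained Stau2GT brains all lay below the trained WT brains, where 11.2% of all clusters did not overlap in either direction. In naive mice its difference was -0.08, and the groups overlapped. The genotype differences of the dim cluster are given without a p-value. For the mean over both clusters, the adjusted p from limma was at least 0.562 in trained and 0.53 in naive mice. Which exons either cluster probes was not given in the sources used here.

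Of the connexins, *Gja1* was at 9.36, 9.34 and 9.34 in naive WT and at 9.56, 9.45 and 9.58 in naive Stau2GT brains. The naive groups did not overlap, and the gap between them was wider than the spread of the WT mice but narrower than that of the Stau2GT mice. In trained mice it was at 9.37, 9.44 and 9.43 in WT and 9.29, 9.39 and 9.46 in Stau2GT brains, which overlapped. The naive difference was 1.14-fold (95% confidence interval 1.03 to 1.25; from limma, p = 0.0158 before and p = 0.954 after adjustment; exact permutation, two-sided, p = 0.1, below which 3 mice against 3 cannot go). The trained difference was -0.03 on the log2 scale (-0.17 to 0.11), and the difference between the genotype effects was -0.22 (-0.42 to -0.02; limma's unadjusted p was 0.0363 and its adjusted p 0.635). Leaving out naive Stau2GT mouse 3 brought the naive log2 fold change of *Gja1* to 0.16 and its unadjusted p from limma to 0.0584. *Gjb6*, the other astrocyte connexin, overlapped between genotypes in both states: it spanned 6.35 to 6.63 in naive WT and 6.26 to 6.42 in naive Stau2GT brains, and 6.29 to 6.39 and 6.18 to 6.34 in trained brains. Its genotype difference was -0.11 in naive and -0.06 in trained mice.

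*Aqp4* was at 9.40, 9.51 and 9.61 in naive WT and at 9.65, 9.77 and 9.69 in naive Stau2GT brains. The naive groups did not overlap, but the gap between them was narrower than the spread within either. In trained mice *Aqp4* was at 9.41, 9.66 and 9.37 in WT and 9.35, 9.60 and 9.59 in Stau2GT brains, which overlapped. The fold was 1.15 in naive mice (95% confidence interval 0.985 to 1.33, adjusted p = 0.998 from limma) and 1.02 in trained mice (0.880 to 1.19). In naive brains, markers of some other cell types lay higher along with *Gja1* and *Aqp4*. The mean of 13 endothelial and pericyte markers was 7.35 to 7.50 in naive WT and 7.55 to 7.59 in naive Stau2GT brains, with 10 of 13 genes above 0 and a median log2 fold change of 0.13. The mean of 13 tested oligodendrocyte markers was 8.92 to 8.99 in naive WT and 9.10 to 9.14 in naive Stau2GT brains, with 13 of 13 above 0 and a median of 0.16. The mean of 9 olfactory bulb markers went the other way, 6.88 to 7.18 in WT and 6.78 to 6.82 in Stau2GT brains, with 0 of 9 above 0 and a median of -0.27. Choroid plexus markers had a median of 0.20 (7 of 8 above 0), microglia 0.02 and the further astrocyte genes -0.01. With group means taken off, *Gja1* correlated with the endothelial and oligodendrocyte means at r = -0.35 and -0.40 in naive brains. Over all 12 brains these values were -0.51 and -0.24. For *Aqp4* they were 0.68 and 0.74 in naive brains and 0.01 and 0.32 over all 12. None of the genes on these lists passed the adjusted threshold between genotypes, and their part in the values of *Gja1* and *Aqp4* was not tested.

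*Gdf10*, the Bergmann glia gene, was at 7.04, 6.99 and 7.41 in naive WT and at 7.01, 7.35 and 7.39 in naive Stau2GT brains. In trained mice it was at 7.40, 7.27 and 7.30 in WT and 7.43, 7.69 and 7.41 in Stau2GT brains. Both naive groups held low and high brains and overlapped, and the trained groups lay next to each other without overlap. The log2 fold change was 0.19 in trained mice (95% confidence interval -0.11 to 0.48, adjusted p = 0.739 from limma) and 0.10 in naive mice (-0.19 to 0.40). Without trained Stau2GT mouse 2 the trained value was 0.10. The mean of the 16 granule cell markers was 8.51 to 8.65 in trained WT and 8.64 to 8.71 in trained Stau2GT brains, with 14 of 16 genes above 0 and a median of 0.12, and its part in the *Gdf10* value was not tested. Averaged over both training states *Gdf10* had the highest genotype difference of the 10 genes, 0.15 (-0.06 to 0.35), and *Gjb6* the lowest, -0.08 (-0.22 to 0.05).

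**Figure D1:**
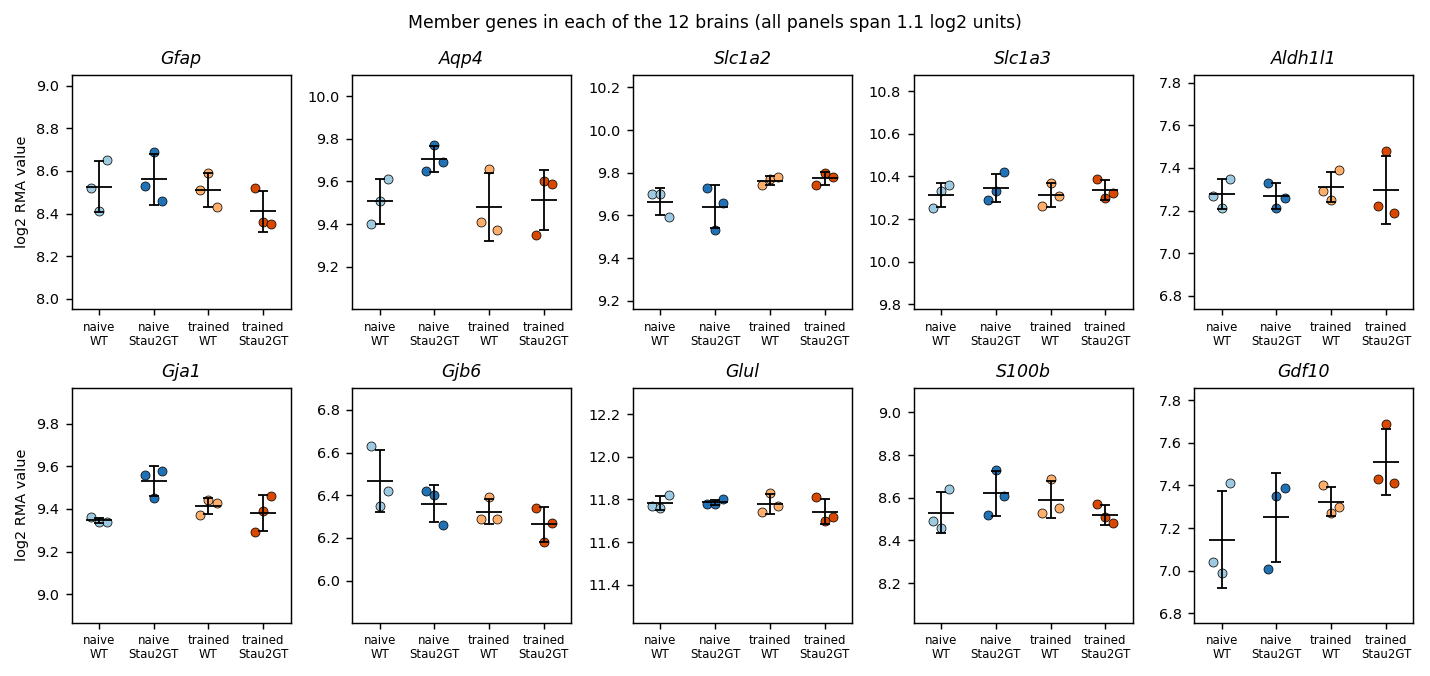
Log2 RMA values of the 10 genes in each of the 12 brains (points), with the mean and SD of the 3 mice of a group; every panel spans the same number of log2 units. *Gja1* and *Aqp4* stand higher in naive Stau2GT than in naive WT mice, *Slc1a2* is higher in trained than in naive mice of each genotype, and *Glul* hardly varies (11.70 to 11.83).

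In trained mice 0 of 10 genes passed the adjusted threshold of 0.05, which 0.179% of all clusters passed, and 0 of 10 had an unadjusted p under 0.05, against 8.92% of all clusters. Log2 fold changes were above 0 for 4 genes and below 0 for 6, with a median of -0.02 against 0.00 for all clusters. Groups did not overlap for 1 of 10 genes (*Gdf10*), where 11.2% of all clusters did not overlap in either direction. In naive mice 0 of 10 passed the adjusted threshold (0.0858% of all clusters) and 1 of 10, *Gja1*, had an unadjusted p under 0.05 (5% of all clusters). Values above 0 were found for 7 genes and below 0 for 3, the median was 0.03, and groups did not overlap for 2 of 10 (12% of all clusters). The mean of both states gave 0 of 10 by the adjusted (0.118% of all clusters) and 0 of 10 by the unadjusted threshold (6.23%), with 5 genes on each side of 0. The difference of the genotype effect between trained and naive mice passed the adjusted threshold for 0 of 10 (0.0215% of all clusters) and the unadjusted one for 1 of 10, again *Gja1* (7.7%). Over all 10 genes the 95% intervals of the fold ran from 0.815 to 1.40 in trained and from 0.816 to 1.33 in naive mice.

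**Figure D2:**
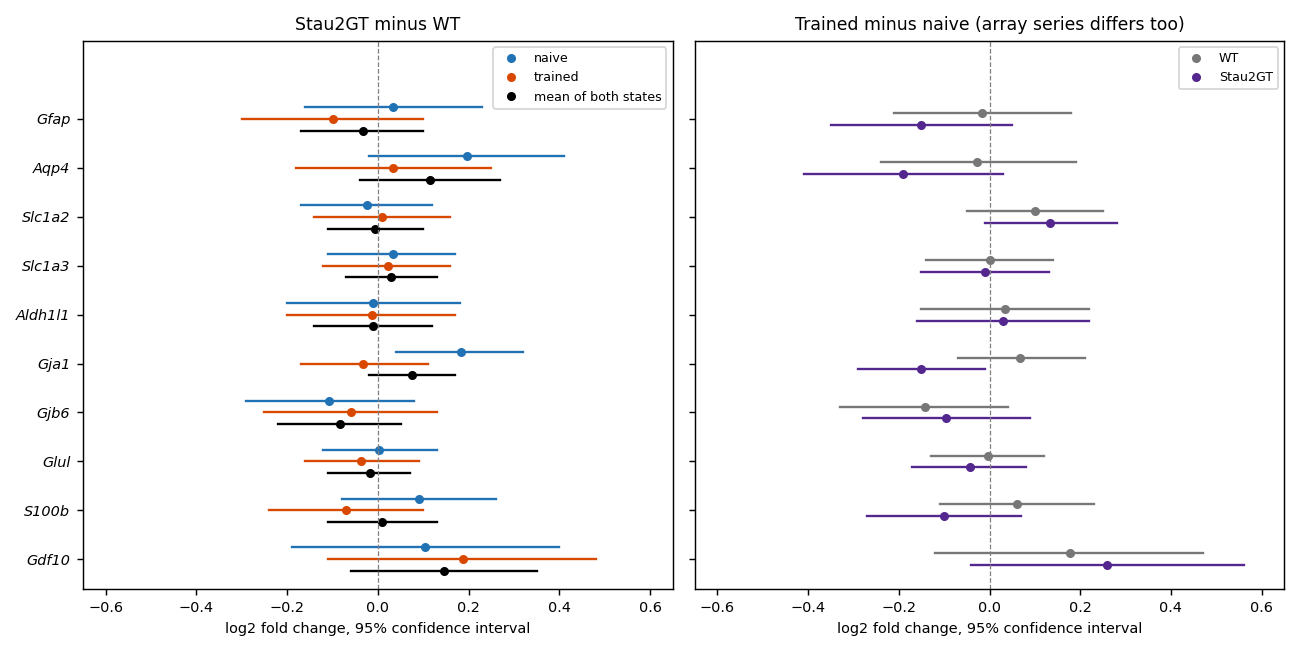
Log2 fold changes of the 10 genes from limma (points) with 95% confidence intervals (lines), Stau2GT minus WT on the left for naive mice, trained mice and their mean, and trained minus naive on the right for each genotype. The intervals include 0 except for *Gja1* in naive mice (0.18) and for *Gja1* between trained and naive Stau2GT mice (-0.15), neither of which passed the adjusted threshold.

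Trained and naive mice, compared within a genotype, differ in array series as well. In WT mice 0 of 10 genes passed the adjusted threshold (1.4% of all clusters) and 0 of 10 the unadjusted one (16%). *Slc1a2* (0.10, 95% confidence interval -0.05 to 0.25) and *Gja1* (0.07, -0.07 to 0.21) lay higher in all trained than in all naive WT brains, that is 2 of 10 without overlap against 22.9% of all clusters. In Stau2GT mice 0 of 10 passed the adjusted threshold (6.11% of all clusters) and 1 of 10 the unadjusted one (26.2%), *Gja1*, at -0.15 (-0.29 to -0.01; adjusted p = 0.169 from limma). Groups did not overlap for 3 of 10, against 28.1% of all clusters. These were *Slc1a2* (0.13, -0.01 to 0.28) and *Gdf10* (0.26, -0.04 to 0.56), higher in trained mice, and *Aqp4* (-0.19, -0.41 to 0.03), lower in trained mice. The Bergmann glia list, 10 genes tested with *Gdf10* and *Slc1a3* among them, gave these counts for trained against naive mice: 2 genes lay above and 8 below 0 in Stau2GT mice (median -0.01), and 2 above and 7 below in WT mice (median -0.05). Between genotypes the same list had 8 above 0 in trained mice (median 0.09) and 7 in naive mice (median 0.04), with 0 passing. The 2 training comparisons and the 2 genotype comparisons share groups, so *Gja1* and *Aqp4* being high in naive Stau2GT mice enters both.

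Other genes of the same functions were read beside the members. Of 38 further astrocyte genes 33 were tested, and 0 passed in any genotype comparison (median -0.03 in trained, -0.01 in naive mice). In the mean of both states the highest was *Sox9*, a transcription factor of the astrocyte lineage (0.08, adjusted p = 0.918 from limma), and the lowest *Itih3* (-0.17, adjusted p = 0.888). *Fam107a*, expressed in radial glia and astrocytes, rose in trained against naive Stau2GT mice by 0.44 (adjusted p = 0.0213 from limma). It was the 1 gene of the 33 called there, against 6.11% of all clusters. In WT mice it also rose, by 0.25 (adjusted p = 0.199 from limma), and its interaction was 0.19 (adjusted p = 0.754). Without any 1 of naive Stau2GT mouse 1 or 3 or trained Stau2GT mouse 2, the adjusted p in Stau2GT mice was 0.0661 to 0.0722. Among 18 tested genes of the glutamate-glutamine cycle 0 passed between genotypes, and the medians were -0.05 in trained and 0.02 in naive mice. The highest was *Slc1a6*, the glutamate transporter of Purkinje cells (0.23, adjusted p = 0.748), and the lowest *Slc38a3*, a glutamine carrier of astrocytes (-0.09, adjusted p = 0.815). The vesicular glutamate transporter *Slc17a8* rose (0.43, adjusted p = 0.0315) and the cystine-glutamate exchanger *Slc7a11* fell (-0.37, adjusted p = 0.0219) between naive and trained Stau2GT mice by limma. They were the 1 higher and the 1 lower gene called of the 18, against 6.11% of all clusters. Between naive and trained WT mice the 18 genes ran from -0.22 to 0.10, with 0 called (1.4% of all clusters). Each of these calls was lost, with adjusted p up to 0.0982, when single Stau2GT mice were left out: mouse 2 or 3 naive or 1 or 2 trained for *Slc17a8*, mouse 1 or 3 naive or 2 trained for *Slc7a11*.

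Of 11 tested gap junction genes 0 passed between genotypes. *Gjc3*, an oligodendrocyte connexin named after its values were seen, differed by 0.19 in naive mice without overlap (limma's unadjusted p 0.0185, adjusted p 0.954) and by -0.05 in trained mice, with an interaction of -0.24 (adjusted p = 0.632 from limma). *Gjb1*, another oligodendrocyte connexin named after its values were seen, also did not overlap in naive mice (0.11, adjusted p = 0.998 from limma). Both are also on the list of mature oligodendrocyte markers. With *Gja1*, 3 of the 11 genes did not overlap in naive mice, against 12% of all clusters. *Gja1* was the highest in the mean of both states (0.08), and the lowest was *Gjc1*, a further connexin (-0.16, adjusted p = 0.735 from limma). *Gjc1* lay lower in all trained Stau2GT than in all trained WT brains (-0.35, adjusted p = 0.255 from limma) and at 0.04 in naive mice. In trained mice 11.2% of all clusters did not overlap in either direction. The 14 tested genes of aquaporins and of the complex that anchors *Aqp4* at end feet ran from *Sntb1*, a syntrophin (-0.09), to *Agrn*, agrin of the basement membrane (0.08), in the mean of both states, with 0 passing. In naive mice their median was 0.01, beside 0.20 for *Aqp4*, and the difference between them was not tested. The 23 tested genes of reactive astrocytes had medians of -0.06 in trained and -0.01 in naive mice, with 0 passing. In the mean of both states their lowest was *Lcn2*, which encodes lipocalin 2 (-1.30, standard error 0.48, adjusted p = 0.735 from limma). Their highest was *Tgm1*, a transglutaminase (0.16, adjusted p = 0.748). *Lcn2* was at -1.92 in naive mice, where the groups overlapped, and at -0.67 in trained mice, where they did not. The mean of the reactive list was 6.70, 6.37 and 6.69 in naive WT mice 1 to 3 and 6.42 to 6.47 in naive Stau2GT mice. Of 14 tested relatives of *Gfap* and *S100b*, 13 lay above 0 in naive mice (median 0.06) and 5 in trained mice (median -0.06), with 0 passing. They ran from *S100a13* (-0.06) to *Des*, desmin (0.12), in the mean of both states.

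Genes induced by glucocorticoids were listed because *Glul* and other astrocyte genes respond to these hormones. Of 19 tested, 0 passed between genotypes. Values lay below 0 for 17 of 19 in naive mice (median -0.14) and for 15 of 19 in trained mice (median -0.08). The bright *Glul* cluster was at 0.00 and -0.04. *Dusp1*, a phosphatase gene that responds fast to stress and activity, was the highest in the mean of both states (0.03) and *Lcn2*, also on this list, the lowest. *Dusp1* rose in trained against naive mice of both genotypes, by 0.77 in WT (adjusted p = 0.0171 from limma) and 0.64 in Stau2GT mice (adjusted p = 0.0207). It was the 1 gene of the 19 called in each, against 1.4% of all clusters in WT and 6.11% in Stau2GT mice. Trained and naive mice differ in array series as well. Either call was lost with an adjusted p of at most 0.0697 when single mice were left out. These were naive WT 2 or 3 or trained WT 1 or 3, and any naive Stau2GT mouse. The list mean was 8.09, 7.58 and 8.06 in naive WT mice 1 to 3, and 7.62 to 7.68 in naive Stau2GT mice, so naive WT mouse 2 sided with the Stau2GT mice.

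**Figure D3:**
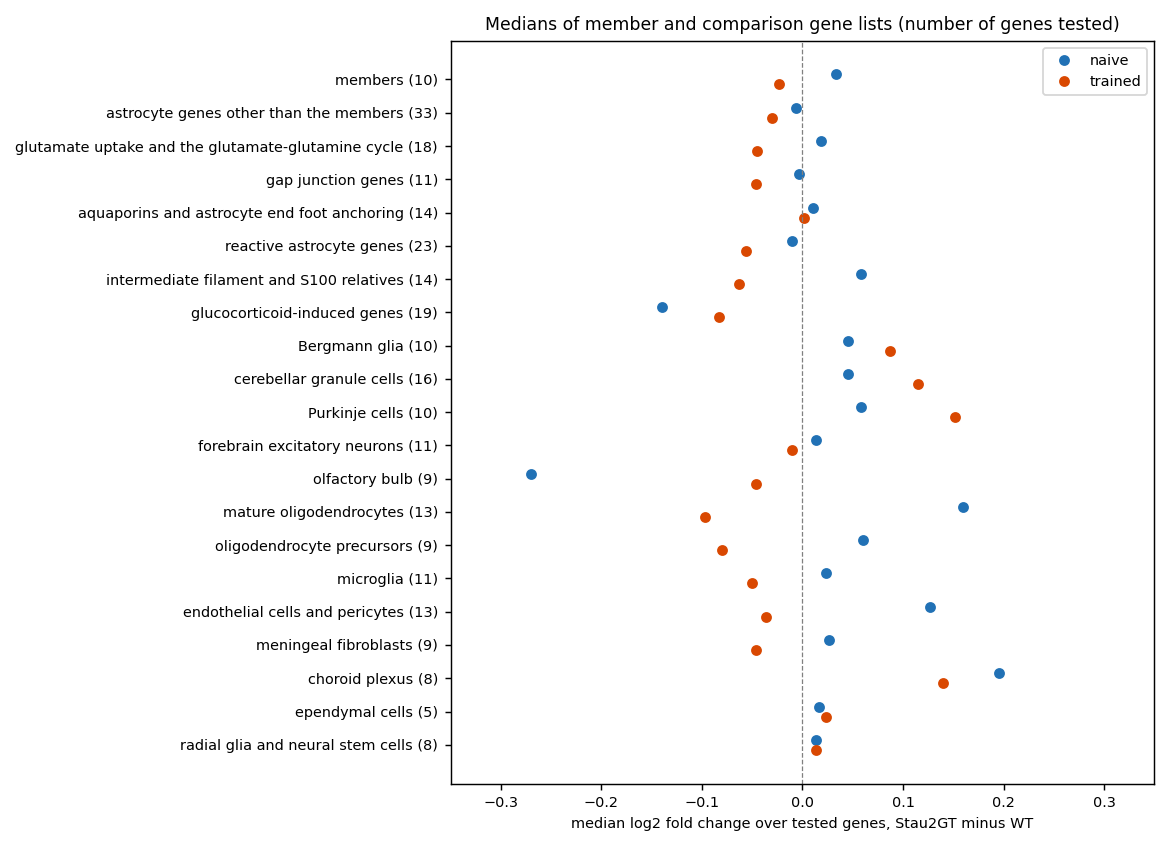
Median log2 fold change, Stau2GT minus WT, over the tested genes of each list, in naive and in trained mice; the number of genes tested stands in brackets. The members lie at 0.03 and -0.02, next to the further astrocyte genes, while olfactory bulb (-0.27), choroid plexus (0.20), oligodendrocyte (0.16) and endothelial markers (0.13) and glucocorticoid-induced genes (-0.14) lie farther from 0 in naive mice; blood cells, with 2 of 11 genes tested (median -0.33), are not drawn.

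The SD within groups was 0.04 for *Glul*, 0.06 for *Slc1a2*, *Slc1a3* and *Gja1*, 0.09 to 0.12 for *S100b*, *Gfap*, *Aldh1l1*, *Gjb6* and *Aqp4*, and 0.18 for *Gdf10*, against a median of 0.13 over all clusters. Each gene was also set against the clusters whose mean log2 level lay within 0.5 of its own: *Gdf10* (SD 0.177, median SD of such clusters 0.114), *Aqp4* (0.122, 0.0829) and *Gfap* (0.105, 0.0926) lay above the median SD of such clusters, and the other 7 members below it. After the 4 group means were taken off, the 45 pairs of members correlated from -0.79 (*Slc1a2* with *S100b*) to 0.82 (*Gfap* with *S100b*) over the 12 brains, with a median r of 0.03 and 25 pairs above 0. The members thus did not go up and down as 1 block. *S100b* and *Gdf10* correlated at 0.55. These correlations are descriptions, since all points come from the same 12 arrays and share their RNA and normalization.

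Part of the variation went with markers of the cerebellum. *S100b* correlated with the mean of the 16 granule cell markers at r = 0.90 (Spearman's rho 0.94) over the 12 brains. The value was 0.84 without the 2 brains farthest from the median of the markers, and 0.96 among the 6 naive and 0.78 among the 6 trained brains. With the oligodendrocyte markers, a list picked after its values were seen, *S100b* was at 0.60 over the 12 brains, 0.31 in naive and 0.96 in trained brains. *Gdf10* gave r = 0.82 (rho 0.80) and 0.63 without those 2 brains, but 0.98 in naive and 0.17 in trained brains. *Slc1a2* went the other way, at -0.77 (rho -0.75), -0.56 without the 2 brains and -0.91 in naive brains, and had the opposite sign in trained brains (0.31), so its relation did not hold within both series. *Aqp4* was at 0.62 (0.80 naive, 0.78 trained), *Gfap* at 0.60, and *Aldh1l1*, *Gja1* and *Gjb6* were between -0.20 and 0.05. With the mean of the 33 further astrocyte genes, *Gfap* correlated at 0.69 (0.66 without the 2 farthest brains), *Glul* at 0.69 (0.42) and *Gja1* at -0.74 (-0.39). The other members ranged from -0.39 for *Slc1a2* and -0.36 for *Aqp4* to 0.41 for *S100b*.

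**Figure D4:**
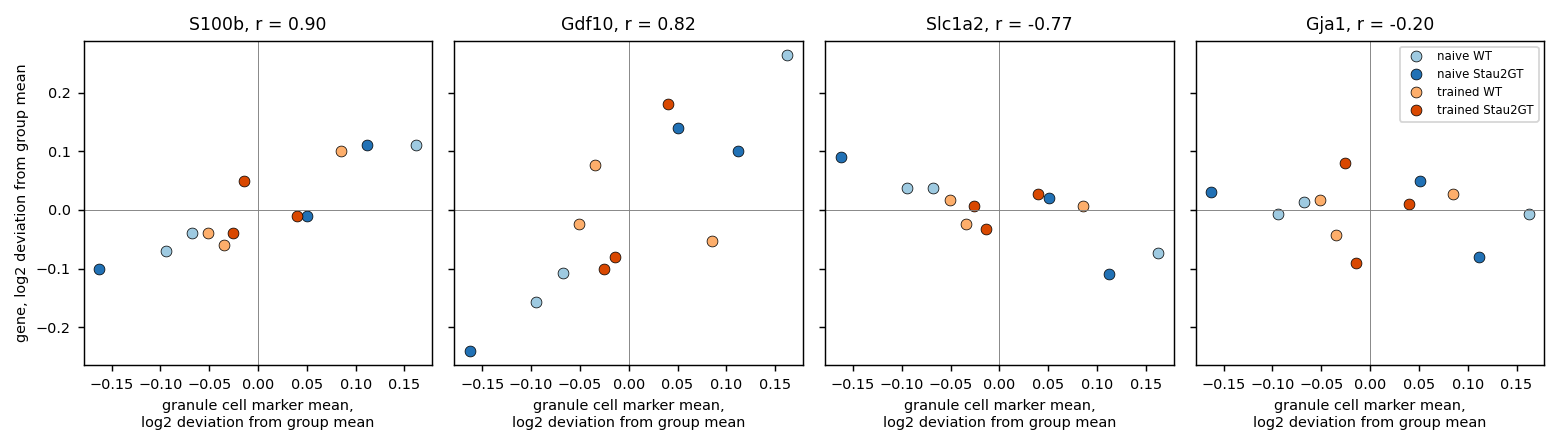
Deviation of *S100b*, *Gdf10*, *Slc1a2* and *Gja1* from the mean of their group (vertical, log2) against that of the mean of the 16 granule cell markers (horizontal, log2) in 12 brains, colored by group. *S100b* and *Gdf10* run upward (r = 0.90 and 0.82), *Slc1a2* downward (-0.77), and *Gja1* shows little slope (-0.20).

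Among 15505 genes searched, those whose deviations most resembled a member's were described by Pearson's r over the 12 brains. For *Gdf10* they were *Pde5a* (0.93), *Chn2* (0.91), *Mrpl40* (0.91), *Spag16* (0.90) and *Dcun1d1* (0.90), of which *Chn2* is on the granule cell list. For *Gfap* they were *P3h3* (0.96), *Amer1*, *Srp9*, *Lfng* and *Rxra* (0.93 each). The closest gene was *Galm* for *S100b* (0.96), *Purb* for *Gja1* (0.96), *Tmem9b* for *Glul* (0.96), *Tmem168* for *Slc1a3* (0.95), *Hsd11b1* for *Aqp4* (0.94), *Olfr574* for *Aldh1l1* (0.94), *Hs3st5* for *Gjb6* (0.93) and *Slc11a2* for *Slc1a2* (0.91). For none of the 10 members was the closest gene another member, and with so many genes and 12 brains, correlations of this size occur for every member.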

How the data were processed

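Brain RNA of 12 mice was hybridized to Affymetrix Mouse Gene 2.0 ST arrays. The authors extracted the intensities, normalized them with RMA (R package oligo) and deposited log2 values for each transcript cluster in each array. Neither the release of oligo nor a joint normalization of naive with trained arrays was given in the sources used here. As in the study's methods, a cluster was tested where at least 3 arrays exceeded a log2 value of 5, which left 27966 of 41345. limma 3.58.1 (R 4.3.3, statmod 1.5.0) fitted the means of the 4 groups on all arrays together (8 residual and 2.78 prior degrees of freedom). P-values were Benjamini-Hochberg adjusted across every tested cluster, and a gene was called at an adjusted p under 0.05. Differences of single genes were also put to exact permutation tests. The number of arrays limits the precision. The fit was tested on simulated data.

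Gene names came from the platform annotation, and of several clusters of 1 gene the brightest on average was used. Gene lists, 22 with the members, covered astrocyte functions and the cell types a brain sample can hold. The members and lists were chosen with earlier results of these data known. Named were all members, genes of the lists that passed between genotypes, the highest and lowest of each functional list in the mean of both training states, up to 3 called genes a direction of such a list in the training comparisons, and the genes most like each member. Promoters and the motif search used RefSeq sequences of GRCm38.p6. Alternatives left the filter out or raised it to 6, or used quantile normalization, centering on array medians, a trended robust prior, array weights, a block for the replicate number, only the 6 arrays compared, the methods' t-test, the mean over both *Glul* clusters, and leaving out each array in turn.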

Additional observations from a re-analysis of the deposited data

How the results depend on the processing

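No member passed the adjusted threshold in any comparison under any alternative run, and the lowest adjusted p of a member was 0.0615 (*Gja1*, trained against naive Stau2GT mice, arrays centered on their medians, where the value was -0.22). Between genotypes the lowest was 0.562 in trained mice (*Gfap*, without trained Stau2GT replicate 1) and 0.53 in naive mice (*Gja1*, array weights). The methods' t-test gave 2 members an unadjusted p under 0.05 in naive mice (*Aqp4* and *Gja1*, among 1879 clusters), 1 between trained and naive WT mice (*Gja1*, among 4227) and 0 in trained mice (1678) and between trained and naive Stau2GT mice (5163). Leaving out 1 mouse moved the naive value of *Gja1* between 0.16 and 0.22 and that of *Aqp4* between 0.14 and 0.25.

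Counts of called clusters moved where members did not. In trained mice, 50 clusters were called between genotypes, 29 with no filter, 26 with array weights, 16 with only the 6 arrays compared, 1 by the methods' t-test and 22 to 47 with 1 mouse left out; in naive mice, 24 were called and 0 by the t-test. The interaction gave 6, and 4 to 10 with 1 mouse left out. Between trained and naive WT mice 391 were called, 661 with the trended robust prior, 730 with array weights, 125 with 6 arrays, 9 by the t-test and 105 to 468 with 1 mouse left out. In Stau2GT mice these were 1708, 961 (array weights), 261 (6 arrays), 0 (t-test) and 431 to 2150. The causes of these moves were not tested. With the replicate block, 37 clusters (trained), 22 (naive), 273 (WT training) and 1394 (Stau2GT training) were called. Same-numbered mice of different groups correlated at -0.03 to 0.07 over 12 pairs, and in 6 of these pairs the mouse correlated best with its own number. With groups of 3, these correlations cannot decide whether the numbers pair the mice. The block changed no member's call. Of the other genes called between trained and naive mice, *Slc17a8* lost its call with the block (adjusted p = 0.0534 from limma), quantile normalization, centering, array weights and 6 arrays (up to 0.0937), *Fam107a* (0.0735), *Slc7a11* (0.0857) and *Dusp1* in WT mice (0.0881) with 6 arrays, and all of them by the methods' t-test.

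Signs turned only for values near 0. With quantile normalization, *Gfap* in WT training was 0.01, *Slc1a3* 0.01 in the interaction and 0.05 in Stau2GT training, and *Glul* 0.02 in Stau2GT training. With centered arrays, *Slc1a2* was -0.03 in trained mice and -0.02 in the interaction, *Slc1a3* -0.01 in trained mice and *Aldh1l1* -0.04 in Stau2GT training. The mean over both *Glul* clusters gave 0.16 in Stau2GT training, since the dim cluster is higher there. In WT training, where the dim cluster was at 0.62, the adjusted p of this mean was 0.125 from limma. That was the lowest of any member in this comparison over the alternatives. With 1 mouse left out, values spanned 0 as follows. In naive mice, *Gfap* ranged from -0.03 to 0.10, *Slc1a2* from -0.07 to 0.03 and *Aldh1l1* from -0.04 to 0.03. In trained mice, *Aqp4* ranged from -0.02 to 0.12, *Aldh1l1* from -0.11 to 0.04 and *Gja1* from -0.07 to 0.01. In the mean of both states, *S100b* ranged from -0.02 to 0.04, *Slc1a2* from -0.03 to 0.02, *Aldh1l1* from -0.06 to 0.01 and *Dusp1* from -0.03 to 0.11. In the interaction, *Slc1a3* ranged from -0.04 to 0.03, *Slc1a2* from -0.02 to 0.08, *Gjb6* from -0.03 to 0.10 and *Gdf10* from -0.05 to 0.16. In WT training, *Gfap* ranged from -0.07 to 0.05, *Aqp4* from -0.12 to 0.03 and *Aldh1l1* from -0.01 to 0.07. In Stau2GT training, *Slc1a3* ranged from -0.04 to 0.03 and *Aldh1l1* from -0.06 to 0.08. The other 1180 member values kept their direction or lay within 0.005 of 0, in the main run or in the alternative, whatever the size of the shift.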

Other observations

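*Gfap* and *Glul* went with markers that the text above does not set beside them. Over the 12 brains, after group means were taken off, *Gfap* correlated with the mean of the 8 choroid plexus markers tested at r = 0.88 (rho 0.93), at 0.81 without the 2 brains farthest from the median of the markers, and at 0.91 among naive and 0.85 among trained brains. *Glul* correlated with the mean of the 13 oligodendrocyte markers at 0.83 (rho 0.77) and at 0.61 without the 2 farthest brains, but at 0.28 among naive and 0.95 among trained brains. *Gdf10* correlated with the 10 tested Purkinje cell markers at 0.87 (rho 0.88; 0.96 naive, 0.49 trained). These lists were picked after the values were seen, as the highest among the lists of other cell types, and the values are descriptions of 12 arrays that share their RNA with the member genes.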
